A study of Homo sapiens with 12 samples.

Results

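DNA replication and G1/S genes were analysed in RNA-seq libraries of HCT116 cells, a human colon cancer line. The group was a fixed list of 42 genes named for replication licensing, the replisome, nucleotide supply, E2F and cyclin E control and histone supply, and 42 of 42 were found among the 26364 gene symbols counted. There were 12 libraries, and every condition was represented by 1 of them. HCT116 wildtype (WT) cells and the p65-deficient single-cell clone 32 received no inhibitor, 5 µM of the topoisomerase (TOP) 1 inhibitor CPT (camptothecin) or 5 µM of the TOP2 inhibitor ICRF193 for 2 h, and either no TNFα (0 h) or 20 ng/mL TNFα for a further 1 h. The labels and methods describe TNFα as added to cells already under the inhibitor, so the libraries with TNFα may have had the inhibitor for longer. The labels of the clone read shRNA p65, whereas the study describes CRISPR-Cas9 with a guide to the third exon of *RELA*. As clone 32 is 1 clone, loss of p65 and other differences between a clone and its parent cannot be told apart.

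DNA replication starts with licensing, in which CDC6 and CDT1 help to load the MCM2 to MCM7 helicase onto origins in G1 phase. At the G1/S transition, cyclin E with its kinase CDK2 and the E2F transcription factors turn on S phase, CDC45 and the GINS complex activate the helicase, and DNA polymerases copy the DNA behind it. New DNA is packed by newly made histones, so that transcription and processing of histone RNA are coupled to S phase. TOP1 and TOP2 relieve the torsion that builds up ahead of replication forks and transcribing polymerases, and CPT traps TOP1 on DNA whereas ICRF193 holds TOP2 as a closed clamp.

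Between 8101212 and 22051046 reads were counted per library, and 4 libraries of clone 32 were shallow with 8101212 to 8755001 reads (ICRF193 without TNFα, and no inhibitor, CPT and ICRF193 with TNFα). The members held between 0.840% and 0.896% of the reads of a library and had from 191 to 18702 reads each. Of 9 colon epithelial markers, 6 (*EPCAM*, *CDH1*, *KRT8*, *KRT18*, *KRT19* and *CDX2*) had at least 20 reads in a library, while *VIL1*, *CDX1* and *LGR5* were at or near 0. One gene each of the fibroblast (*COL1A1*, of 6), leukocyte (*CD68*, of 5) and endothelial (*VWF*, of 3) lists reached 20 reads, and the defining genes *PTPRC*, *CD3E* and *PECAM1* had at most 3. The summed fibroblast level was 5.58 to 7.35 CPM (reads of a gene scaled to library size) without inhibitor and 8.32 to 13.7 CPM with CPT, the leukocyte level 14.1 to 19.6 and 17.9 to 24.8 CPM, and the endothelial level 0.963 to 1.58 and 0.291 to 0.85 CPM. Their part in the results was not tested. *RELA*, which encodes p65, had 48.6 to 63.6 CPM in WT cells and 38.6 to 46.7 CPM in clone 32. A small indel need not remove the mRNA, so this level does not check the loss of p65 protein.

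Stretches upstream of 5 members are shown because E2F binding is the known link between the G1/S transition and these genes. The 150 bases before the annotated start were taken from RefSeq (GRCh38.p14, printed 5′ to 3′ on the strand of the gene), with matches to the E2F letters TTTCCCGC, TTTCGCGC, TTTGCCGC or TTTGGCGC on either strand in capitals. *NPAT* (chr11:108222639-108222788, minus strand), *E2F2* (chr1:23531234-23531383, minus) and *CASP8AP2* (chr6:89829730-89829879, plus) were among the members lowered most by CPT, *E2F1* (chr20:33686386-33686535, minus) was not called and *MCM6* (chr2:135876444-135876593, minus) was raised.
*NPAT*: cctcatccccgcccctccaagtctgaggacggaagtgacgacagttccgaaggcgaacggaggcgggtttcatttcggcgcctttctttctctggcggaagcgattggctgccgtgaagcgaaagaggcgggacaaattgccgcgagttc
*E2F2*: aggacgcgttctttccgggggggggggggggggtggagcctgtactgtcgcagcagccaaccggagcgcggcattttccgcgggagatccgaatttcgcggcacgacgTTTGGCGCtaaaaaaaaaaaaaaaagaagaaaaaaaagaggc
*CASP8AP2*: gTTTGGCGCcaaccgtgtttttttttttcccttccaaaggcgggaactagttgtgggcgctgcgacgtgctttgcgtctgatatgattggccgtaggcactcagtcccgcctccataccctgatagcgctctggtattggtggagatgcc
*E2F1*: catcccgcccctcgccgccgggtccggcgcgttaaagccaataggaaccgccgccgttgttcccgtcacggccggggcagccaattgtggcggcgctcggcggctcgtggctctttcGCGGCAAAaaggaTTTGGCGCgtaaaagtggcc
*MCM6*: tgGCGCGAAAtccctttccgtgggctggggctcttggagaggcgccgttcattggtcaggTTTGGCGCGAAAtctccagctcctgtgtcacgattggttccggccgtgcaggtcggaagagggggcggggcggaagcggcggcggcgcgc
No match stood in the stretch of *NPAT*, 1 each in those of *E2F2* and *CASP8AP2*, 2 in that of *E2F1* and 3 in that of *MCM6*, of which 2 overlap because TTTGGCGC runs into the reverse of TTTCGCGC. In windows from 250 bases before to 50 after the start, which were held for 37 of the 42 members, 20 (54.1%) had an E2F match against 3.99% of all 27305 genes with a window. A CCAAT box, the letters bound by NF-Y, stood in 22 of the 37 members (59.5%) against 39.7% of all genes, on either strand. E2F letters were found in 3 of 6 members that CPT raised, 5 of 10 that it lowered and 12 of 21 that were not called. The windows of the 3 groups thus held these letters at shares of 50%, 50% and 57.1%. A match describes the letters and is not evidence of binding.

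Levels of the members were compared per length as FPKM, here CPM per kilobase of counted exon. Without inhibitor, the highest mean levels were 248.7 ± 5.61 FPKM (SD, n = 4 libraries) for the sliding clamp *PCNA*, 224 ± 14.7 for thymidine kinase *TK1* and 218 ± 22.2 for the helicase subunit *MCM7*. All 4 libraries were higher for *PCNA* (244 to 256 FPKM) than for the other two, whose ranges overlapped. The lowest were the repressor *E2F7* (7.30 ± 1.14 FPKM), the histone gene coactivator *NPAT* (9.42 ± 0.384), the GINS subunit *GINS4* (12.3 ± 0.381) and the histone RNA processing factor *CASP8AP2* (12.3 ± 1.42), followed by *E2F8* (13.0 ± 1.62), *E2F2* (14.3 ± 0.408) and the polymerase α subunit *POLA2* (14.3 ± 0.589). The 4 libraries differ in cell line and TNFα, so the SD is not that of replicates. From *GINS4* to *POLA2*, no gene differed from the next in this order beyond these spreads.

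CPT was compared with no inhibitor in 4 pairs of libraries that share cell line and TNFα time, which stand in for replicates because no condition has one. In the fit over the 4 pairs, *NPAT*, *E2F2*, *E2F8*, *E2F7* and *CASP8AP2* were lowered by more than 1.5-fold, and the other 37 members moved by less than that in either direction. This line was not the same in each pair. In the WT pairs (0 and 1 h TNFα), *GINS3* passed it with log2 ratios of -0.70 and -0.59. *CASP8AP2* (-0.55 and -0.52) did not, nor did *E2F7* at 0 h (-0.43). In a quasi-likelihood test with edgeR, blocked by pair and adjusted (Benjamini-Hochberg) over 13993 genes, 9 members were raised, 11 were lowered and 22 were not called at an adjusted p below 0.05. Across all genes 48.3% were called, 23.2% raised and 25.1% lowered, against 47.6%, 21.4% and 26.2% of the members, so that the share of members called was near the background. Over 1.5-fold, 5 members (11.9%) were called lowered against 11.2% of all genes, and 0 were called raised against 7.65%. The median log2 fold change was 0.04 over the members and 0.02 over all genes, and its median size was 0.14 and 0.22. All 4 CPT libraries lay below all 4 libraries without inhibitor for 10 members (23.8%; 21.1% of all genes), and above them for 8 (19.0%; 16% of all genes). In bulk RNA, fewer cells of a type and less RNA per cell cannot be told apart. Levels are scaled to the reads of each library, so raised and lowered are relative to the other genes. A small rise can thus be a larger share of the RNA without more RNA per cell.

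**Figure D1:**
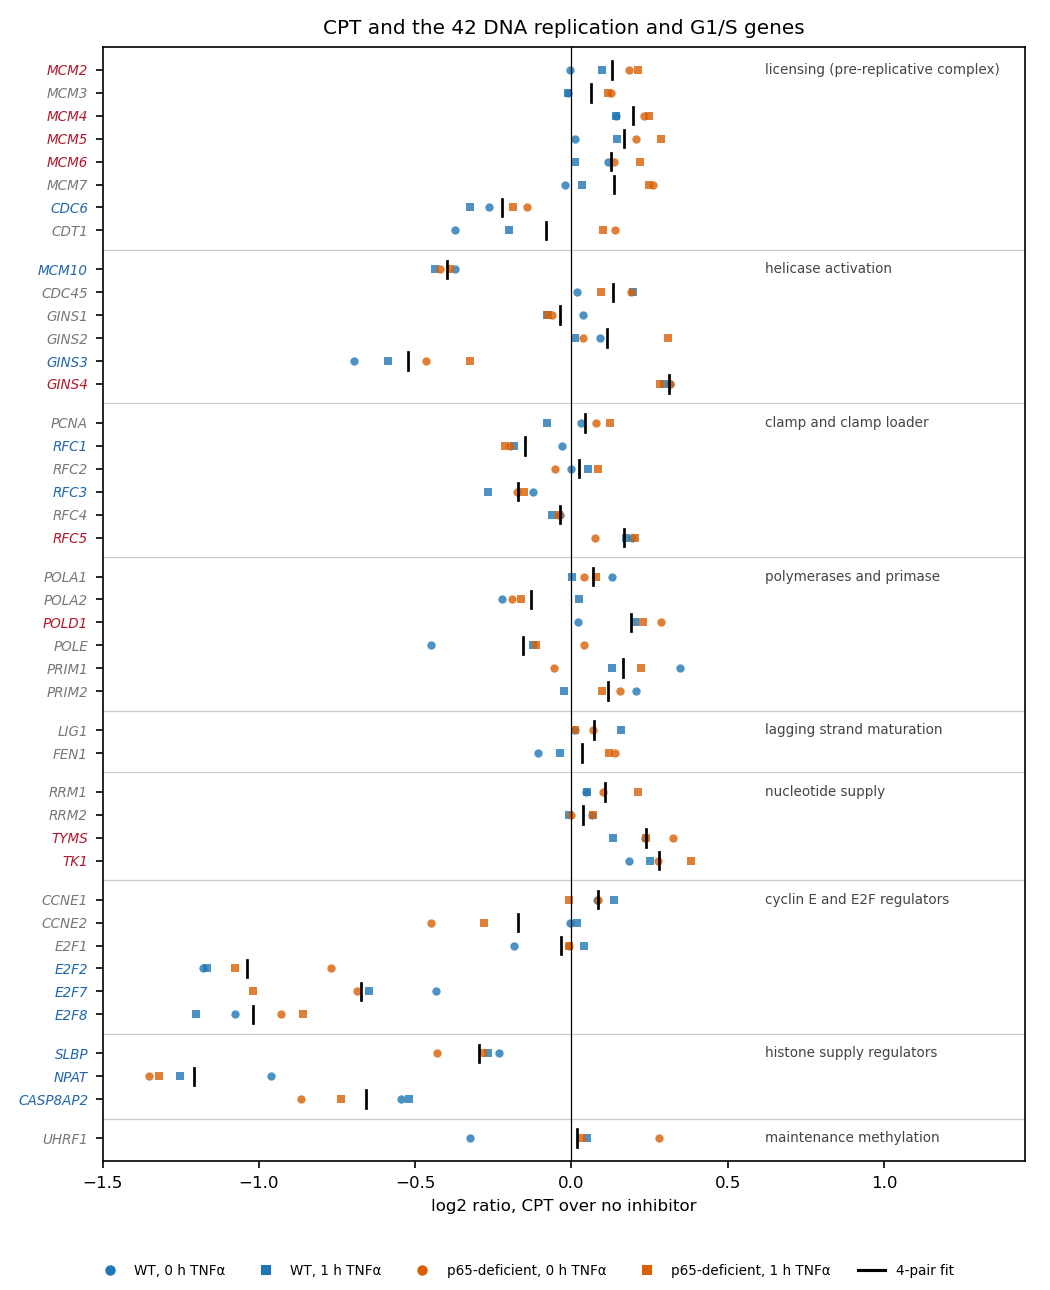
Log2 ratio of CPT over no inhibitor (x axis) for each of the 42 genes, grouped by role, in the 4 pairs (points) with the 4-pair edgeR estimate (black bars). Gene names are red where raised, blue where lowered and grey where not called. *NPAT*, *E2F2* and *E2F8* lie farthest to the left, with every pair at -0.77 or below.

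The 3 regulators of histone supply all fell with CPT, where 25.1% of all genes were lowered. *NPAT* (hg19 chr11:108028119-108093365, minus strand), a CDK2 substrate that activates histone gene transcription, had 53.1, 57.6, 55.0 and 57.9 CPM without inhibitor (WT 0 h, WT 1 h, clone 32 0 h and clone 32 1 h TNFα) and 27.3, 24.2, 21.6 and 23.2 CPM with CPT in the same order. The highest CPT library was thus under 28 CPM and the lowest library without inhibitor above 53 CPM. The log2 fold change was -1.21 ± 0.08 (SE; adjusted p = 4.73e-07), and the 4 pairs gave -0.96, -1.25, -1.35 and -1.32. *CASP8AP2*, also known as FLASH, which takes part in histone pre-mRNA processing, ranged from 74.9 to 93.7 CPM without inhibitor and from 49.1 to 56.2 CPM with CPT (-0.66 ± 0.07). *SLBP*, which binds the stem-loop of histone mRNA, ranged from 195 to 205 CPM and from 147 to 170.5 CPM (-0.30 ± 0.05). Neither gene's groups overlapped. Of the histone genes themselves, 46 of 47 tested *HIST1* to *HIST4* genes were lowered, with a median log2 fold change of -3.74. Whether their fall was linked to that of the regulators was not tested.

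Among the cyclin E and E2F regulators, 3 of 6 fell and 0 rose, where 25.1% of all genes fell and 23.2% rose. *E2F2* (hg19 chr1:23832920-23857712, minus strand), an activator of S-phase genes, had 76.8, 75.1, 73.7 and 71.8 CPM without inhibitor and 33.9, 33.4, 43.2 and 34.0 CPM with CPT. The CPT library of clone 32 without TNFα was higher than the other 3 CPT libraries, and the groups did not overlap. Its log2 fold change was -1.04 ± 0.08 (adjusted p = 1.11e-06). *E2F8* and *E2F7*, which repress E2F target genes, fell by 1.02 ± 0.07 and 0.67 ± 0.09 on the log2 scale. *E2F8* ranged from 44.7 to 57.4 CPM without inhibitor and from 24.6 to 27.2 CPM with CPT. *E2F7* varied more between pairs, with ratios from -1.02 (clone 32, 1 h TNFα) to -0.43 (WT, 0 h). *E2F1*, the activator most often named in G1/S control, was not called, with 64.1 to 72.8 CPM without inhibitor, 57.8 to 72.4 CPM with CPT and a 95% interval of the log2 fold change from -0.15 to 0.08. The cyclins E, *CCNE1* (0.08 ± 0.05) and *CCNE2* (-0.17 ± 0.08), were not called. The pairs of *CCNE2* gave -0.01 and 0.02 in WT cells and -0.45 and -0.28 in clone 32 (0 and 1 h TNFα).

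**Figure D2:**
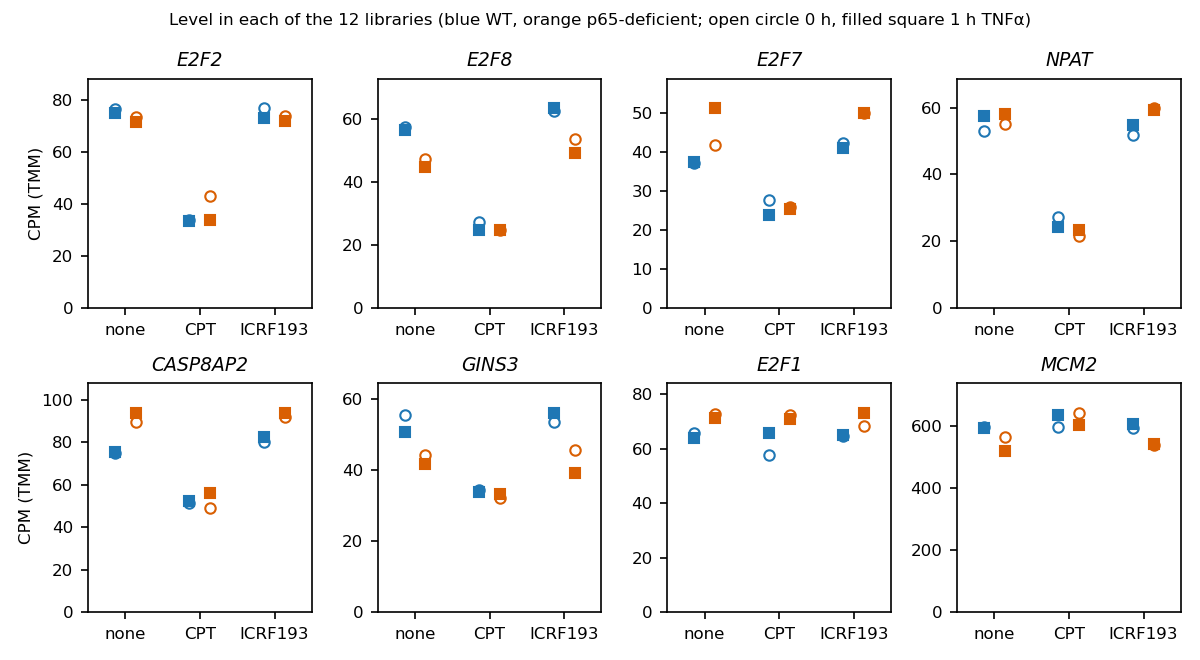
CPM with TMM scaling (y axis, from 0) in each of the 12 libraries for 8 genes under no inhibitor, CPT and ICRF193 (x axis). Blue is WT and orange clone 32, open circles are 0 h and filled squares 1 h TNFα. The 4 CPT libraries lie below the others for *E2F2*, *E2F8*, *E2F7*, *NPAT*, *CASP8AP2* and *GINS3*, and among them for *E2F1*.

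The licensing genes moved little. *MCM2*, *MCM4*, *MCM5* and *MCM6*, subunits of the helicase, were raised by 0.13 to 0.20 on the log2 scale. The calls of *MCM2* and *MCM6* were each lost in 6 of 10 alternatives, both of them without the pair as a block. *MCM4* had 749, 750, 755 and 728 CPM without inhibitor and 827, 828, 886 and 866 CPM with CPT. These groups did not overlap, with a log2 fold change of 0.20 ± 0.04 (adjusted p = 0.00339). *MCM2* was the one called member whose pairs disagreed in sign, from -0.01 to 0.21. *MCM3* and *MCM7* were not called (0.06 ± 0.04 and 0.14 ± 0.06). *CDC6*, a helicase loader, had 279, 284, 240 and 259 CPM without inhibitor and 232, 227, 218 and 228 CPM with CPT. It was the one licensing member that fell, by 0.22 ± 0.04 (adjusted p = 0.0016), and its groups did not overlap.

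The 4 GINS genes, whose products form 1 complex, went in different directions. *GINS3* (hg19 chr16:58426298-58440048, plus strand) had 55.7, 50.8, 44.4 and 41.7 CPM without inhibitor and 34.4, 33.8, 32.2 and 33.3 CPM with CPT. It fell by 0.52 ± 0.07 (adjusted p = 0.000142), with no overlap of the groups. *GINS4* had 45.4, 46.5, 48.5 and 48.2 CPM and, with CPT, 56.6, 57.1, 60.4 and 58.7 CPM. All 4 pairs of *GINS4* lay between 0.28 and 0.32, and the fit gave 0.31 ± 0.06 (adjusted p = 0.000858), the largest rise in the group. *GINS1* (-0.04 ± 0.05) and *GINS2* (0.11 ± 0.06) were not called. *MCM10*, which helps to activate the helicase, fell by 0.40 ± 0.04 with pairs between -0.44 and -0.37, whereas *CDC45* was not called (0.13 ± 0.06).

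At the replisome, 4 of 14 members were called, a smaller share than the 48.3% of all genes. *RFC5*, a clamp loader subunit, had 131, 129, 140 and 137 CPM without inhibitor and 150, 146, 148 and 157 CPM with CPT. It rose by 0.17 ± 0.04 (adjusted p = 0.00953), and its groups did not overlap. *RFC3*, another subunit, had 74.8, 78.5, 69.0 and 77.9 CPM and, with CPT, 68.8, 65.3, 61.1 and 70.2 CPM. It fell by 0.17 ± 0.05 (adjusted p = 0.0198) although the groups overlapped, and the large subunit *RFC1* fell by 0.15 ± 0.04. *POLD1*, the catalytic subunit of polymerase δ, had 140, 131, 144 and 131 CPM and, with CPT, 142, 151, 176 and 154 CPM. The fold change was 0.19 ± 0.05 (adjusted p = 0.0103), with overlapping groups. *PCNA*, *RFC2*, *RFC4*, *POLA1*, *POLA2*, *POLE*, the primase genes *PRIM1* and *PRIM2*, the ligase *LIG1* and the flap endonuclease *FEN1* were not called, with log2 fold changes from -0.16 to 0.17.

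Of the 4 genes of nucleotide supply, *TK1*, the thymidine kinase of the salvage pathway, had 349, 362, 388 and 333 CPM without inhibitor and 397, 431, 471 and 433 CPM with CPT. It rose by 0.28 ± 0.04 (adjusted p = 0.000263), and the groups did not overlap. *TYMS*, thymidylate synthase, rose by 0.24 ± 0.06, from 44.9 to 48.2 CPM without inhibitor to 51.5 to 59.9 CPM with CPT. The ribonucleotide reductase genes *RRM1* (0.11 ± 0.04) and *RRM2* (0.04 ± 0.04) and the maintenance methylation factor *UHRF1* (0.02 ± 0.08) were not called. The 95% intervals of the 22 members not called lay within 1.5-fold either way, as far as the standard errors of the fit go. They can be smaller than the spread between pairs, which for *UHRF1* ran from -0.32 to 0.28.

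Of the 20 calls with CPT, 12 stayed under each of 10 alternatives (*CDC6*, *MCM10*, *GINS3*, *GINS4*, *TYMS*, *TK1*, *E2F2*, *E2F7*, *E2F8*, *SLBP*, *NPAT* and *CASP8AP2*). The calls of *MCM2*, *MCM4*, *MCM5*, *MCM6*, *RFC1*, *RFC3*, *RFC5* and *POLD1* were lost in 1 to 6 of them. Without the pair of clone 32 with TNFα, which holds both shallow libraries of this comparison, 3 members were raised in place of 9 and 10 were lowered. Over all genes, 2173 of 14103 were raised and 3081 lowered in that fit. With all pairs it was 3251 and 3512 of 13993. Reads were counted without strand, and exons on the opposite strand cover 56.1% of the counted bases of *TYMS* (*ENOSF1*), 26.6% of *PCNA* (*PCNA-AS1*), 9.87% of *CCNE2* (*INTS8*) and 8.95% of *MCM7* (*AP4M1*), so the levels of these 4 genes are uncertain.

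The other genes of the pathway, a list of 75 with the same roles, had 16 raised and 26 lowered of 74 tested (56.8% called, against 48.3% of all genes). Lowered most were *E2F6*, an E2F repressor (-1.59 ± 0.10), *TICRR*, which helps to fire origins (-1.41 ± 0.08), *ZNF473*, a histone pre-mRNA processing factor (-1.31 ± 0.15), *CDC25A*, the phosphatase that activates CDK2 (-0.997 ± 0.05), the activator *E2F3* (-0.99 ± 0.07) and *FBXW7*, which targets cyclin E for degradation (-0.96 ± 0.07). Raised most were *CDKN2C*, an inhibitor of CDK4 and CDK6 (0.52 ± 0.13), the alternative clamp loader *CHTF18* (0.34 ± 0.06), the RNase H2 subunit *RNASEH2C* (0.33 ± 0.06), the dUTPase *DUT* (0.32 ± 0.05), *CCND3* (0.29 ± 0.07) and *RNASEH2A* (0.27 ± 0.05). As among the members, the largest falls were larger than the largest rises.

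**Figure D3:**
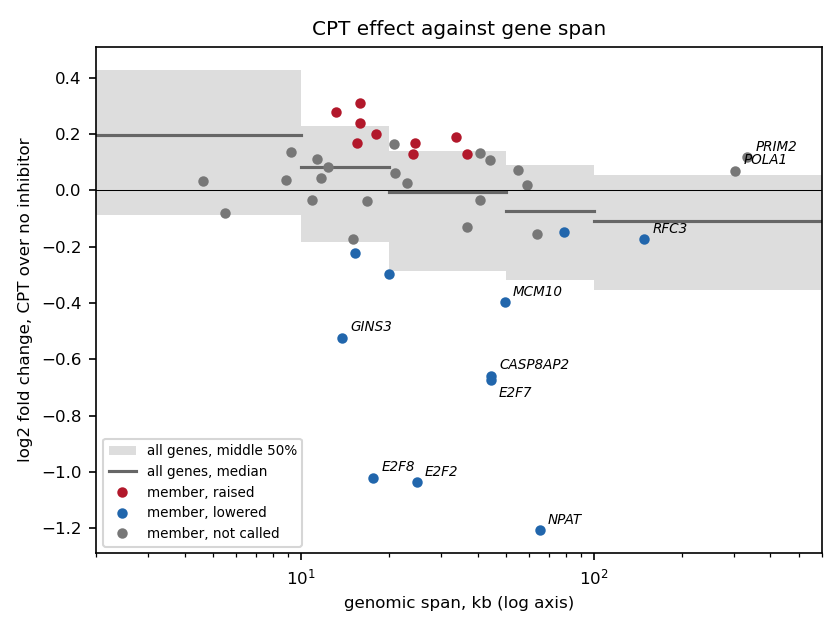
Log2 fold change with CPT (y axis) against genomic span in kb (log x axis) for the 42 genes (points), with the median and middle 50% of all genes in 5 classes of span (grey; the first class starts at 0 and the last has no upper limit). *POLA1* and *PRIM2* lie near 0 at more than 300 kb, and *E2F8* and *E2F2* near -1 at 17.6 and 24.8 kb.

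Gene length was related to the CPT effect across all genes, with a Spearman's rho between genomic span and log2 fold change of -0.32 over 13838 genes and of -0.22 over the 42 members. These are correlations across genes from the same libraries and describe them only. Among the members, the 9 raised spanned 13.1 to 36.9 kb (median 18.0 kb), the 11 lowered 13.8 to 148 kb (median 44.3 kb) and the 22 not called 4.61 to 334 kb (median 20.8 kb). The longest members were *PRIM2* (334 kb, 0.12 ± 0.06) and *POLA1* (303 kb, 0.07 ± 0.05), neither of which was called, whereas the median of genes of 100 kb or more was -0.11. *RFC3*, the third member over 100 kb (148 kb), fell by 0.17 ± 0.05. The 14 members of 10 to 20 kb had a median of 0.06, against 0.08 for all genes of that span, and 5 of them were raised and 3 lowered, among these *E2F8* (17.6 kb) and *GINS3* (13.8 kb). The 5 members lowered by more than 1.5-fold were among the 7 of lowest FPKM without inhibitor. Over the members, rho between the mean CPM without inhibitor, which is not scaled for length, and the fold change was 0.32. Both values use the same libraries without inhibitor.

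With ICRF193, 0 of 42 members were called with edgeR over 4 pairs, against 2.17% of all genes. At an unadjusted p below 0.05 there were 3 members and 1573 of 13631 genes. DESeq2 called 0 members and gave 2, beside 485 of 13631 genes, at an unadjusted p below 0.05. The 95% intervals of all 42 members lay within 1.5-fold either way. *E2F8* came nearest to the threshold, with 62.7, 63.4, 53.6 and 49.2 CPM with ICRF193 against 57.4, 56.6, 47.4 and 44.7 CPM without inhibitor. It was higher in 4 of 4 pairs by 0.15 ± 0.05 (adjusted p = 0.0605). *E2F7* followed with 0.15 ± 0.05 (adjusted p = 0.157), and *NPAT* ranged from 51.7 to 59.7 CPM with ICRF193. Of the 47 histone genes, 0 were called in the same fit.

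**Figure D4:**
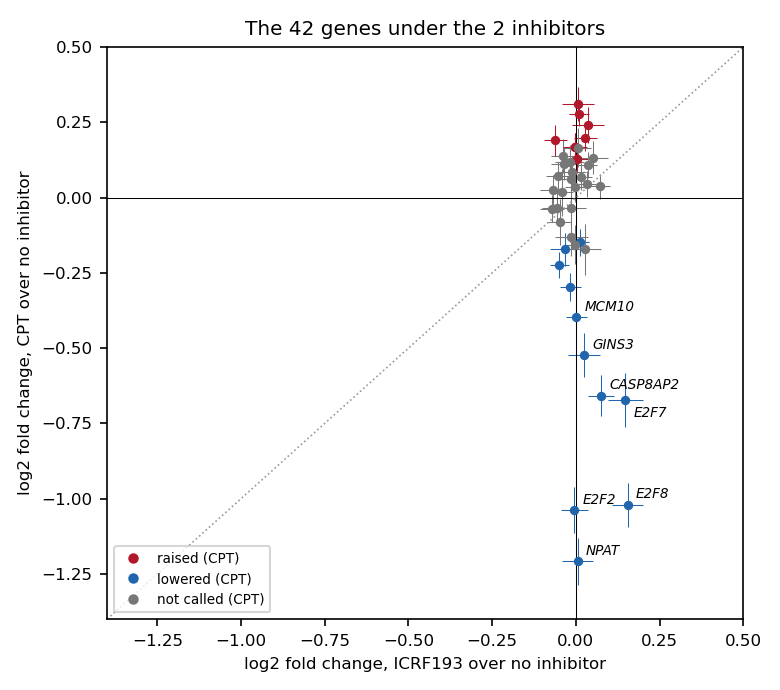
Log2 fold change with CPT (y axis) against that with ICRF193 (x axis) for the 42 genes, with SE bars from the 2 edgeR fits and the line of equal change (dotted). Both share the 4 libraries without inhibitor. The genes spread from -1.21 to 0.31 with CPT and from -0.07 to 0.15 with ICRF193.

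The difference between the inhibitors was tested directly at the same dose and time, in 4 pairs of a CPT and an ICRF193 library. Of the members, 8 were higher and 12 lower with CPT, 47.6% against 46.4% of all genes. *NPAT* (-1.23 ± 0.09), *E2F8* (-1.19 ± 0.08), *E2F2* (-1.05 ± 0.08), *E2F7* (-0.83 ± 0.08) and *CASP8AP2* (-0.74 ± 0.06) differed most, and *GINS4* (0.30 ± 0.06) and *TK1* (0.26 ± 0.06) were highest with CPT. This comparison uses the same CPT libraries as the one above. Without the pair of clone 32 with TNFα, 13 members were called, and 2178 of 14017 genes were higher and 3103 lower. Both ICRF193 libraries of clone 32 were shallow, but its CPT library without TNFα was not. Without the shallow libraries, an alternative chosen after seeing the data, only the WT pairs remained. There 3 members were higher and 12 lower, beside 2535 and 3487 of 14049 genes. The calls of *CCNE2*, *MCM4*, *MCM5*, *MCM7*, *POLD1*, *RFC5* and *TYMS* were lost, and *CDT1* and *PRIM1* were gained.

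TNFα for 1 h called 0 members with edgeR in either line. In the pairs with CPT or ICRF193, the library with TNFα may also have had the inhibitor for longer. TNFα and time under the inhibitor cannot be told apart there. In WT cells 0.642% of all genes were called over 3 pairs. At an unadjusted p below 0.05 there were 2 members and 595 of 13707 genes. In clone 32 0.498% of all genes were called, and 5 members and 1683 of 12858 genes had an unadjusted p below 0.05. DESeq2 called 0 members in either line. At an unadjusted p below 0.05 it gave 1 and 0 members, beside 149 of 13707 and 343 of 12858 genes. *CCNE2* had the largest difference in both lines, 0.24 ± 0.06 in WT cells (adjusted p = 0.114) and 0.20 ± 0.07 in clone 32 (adjusted p = 0.186). It was higher with TNFα in 3 of 3 pairs of each line, with log2 ratios from 0.19 to 0.33 in WT cells and from 0.10 to 0.33 in clone 32. In clone 32 the libraries with TNFα were the shallow ones in the pairs without inhibitor and with CPT, so an effect of TNFα cannot be told apart from one of depth in these pairs. Both libraries of the ICRF193 pair were shallow, with 8755001 reads at 0 h and 8676666 at 1 h TNFα. Without the CPT pair, 2 members (*CCNE2* and *POLE*) were called in WT cells, where 201 of 13625 genes were raised and 171 lowered. Without the ICRF193 pair, 2 (*MCM5* and *TK1*) were called in clone 32, where 297 of 13700 genes were raised and 284 lowered. That fit keeps only the pairs that differ in depth. Their log2 ratios were -0.12 and -0.20 for *MCM5* and -0.12 and -0.22 for *TK1* (CPT and no inhibitor). In the ICRF193 pair they were 0.03 and 0.05.

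Whether the CPT effect depended on TNFα or on the cell line was tested as an interaction in the 8 libraries with CPT or without inhibitor. The CPT libraries with TNFα may have had CPT for longer, and TNFα and time under CPT cannot be told apart. By TNFα, edgeR called 0 members, against 0.00715% of all genes. At an unadjusted p below 0.05 there were 0 members and 82 of 13993 genes. DESeq2 called 0 members, with 0 members and 9 genes at an unadjusted p below 0.05. *E2F7* had the largest difference, -0.26 ± 0.18 (95% interval from -0.62 to 0.10). By cell line, 9 members and 2769 of 13993 genes had an unadjusted p below 0.05 with edgeR. After adjustment 1 member was called, 2.38% against 4.51% of all genes. This was *CDT1*, whose product loads the helicase together with CDC6. *CDT1* (hg19 chr16:88870186-88875666, plus strand) had 150 and 140 CPM in WT cells without inhibitor and 116 and 122 CPM with CPT (0 and 1 h TNFα). In clone 32 it had 141 and 131 CPM without inhibitor and 155 and 140 CPM with CPT. It was thus lower with CPT in both WT pairs (-0.37 and -0.20) and higher in both pairs of the clone (0.14 and 0.10). The difference in log2 fold change, clone 32 minus WT, was 0.41 ± 0.09 (adjusted p = 0.0152). Without the clone 32 pair at 0 h TNFα, it was 0.40 and no longer passed the threshold. The number of members called by cell line was 0 without that pair, 4 without the clone 32 pair at 1 h, 2 without the WT pair at 0 h and 7 without the WT pair at 1 h TNFα. The calls over all genes moved with these fits. In the same order, the CPT effect was higher in clone 32 for 132, 423, 341 and 815 genes. It was lower for 89, 187, 390 and 791, of 13984, 14103, 14045 and 14028 tested.

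Clone 32 was compared with WT cells in 6 pairs matched for inhibitor and TNFα. Of the members, 6 were higher (14.3%, against 15.2% of all genes) and 5 lower (11.9%, against 16.9%). Both cyclin E genes, which encode the partners of CDK2 at S-phase entry, were higher. *CCNE2* had 34.8, 39.5, 34.6, 40.1, 34.4 and 43.3 CPM in WT cells (no inhibitor, CPT and ICRF193, each at 0 and 1 h TNFα) and 51.1, 57.2, 37.4, 47.1, 51.4 and 55.1 CPM in clone 32. It was higher in 6 of 6 pairs, by 0.40 ± 0.07 (adjusted p = 0.000489), and least so in the CPT pairs (0.11 and 0.23). *CCNE1* had 61.7, 60.01, 65.3, 66.0, 60.6 and 60.5 CPM in WT cells and 77.05, 75.03, 81.8, 74.7, 76.1 and 73.6 CPM in clone 32. Every library of the clone was above every WT library, and the difference was 0.30 ± 0.04 (adjusted p = 0.000142). The activator *E2F1* (0.17 ± 0.05), *CDC45* (0.16 ± 0.05), *E2F7* (0.20 ± 0.07) and *CASP8AP2* (0.17 ± 0.05) were higher as well. The call of *E2F7* was lost in 7 of 12 alternatives, that of *CASP8AP2* in 6 and that of *CDC45* in 4, and those of *E2F1* and both cyclin E genes in 1 each.

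Lower in clone 32 were *GINS3*, *E2F8*, *MCM7* (-0.16 ± 0.05), *CDC6* (-0.15 ± 0.04) and *LIG1* (-0.11 ± 0.04). The call of *LIG1* was lost in 10 of 12 alternatives, that of *MCM7* in 6 and those of *CDC6*, *E2F8* and *GINS3* in 4, 2 and 2. *GINS3* had 55.7, 50.8, 34.4, 33.8, 53.6 and 56.2 CPM in WT cells and 44.4, 41.7, 32.2, 33.3, 45.6 and 39.1 CPM in the clone, in the order above. It was lower in 6 of 6 pairs, by 0.25 ± 0.06 (adjusted p = 0.00825). *E2F8* had 57.4, 56.6, 27.2, 24.6, 62.7 and 63.4 CPM in WT cells and 47.4, 44.7, 24.9, 24.7, 53.6 and 49.2 CPM in the clone. The log2 fold change was -0.23 ± 0.06 (adjusted p = 0.00695), and the groups overlapped, with both lines between 24.6 and 27.2 CPM under CPT. In 4 of the 6 pairs the clone's library was shallow, and the part of depth in these differences was not tested. In the 2 pairs without a shallow library (no inhibitor and CPT, 0 h TNFα), 0 members were called, with log2 ratios of 0.32 and 0.33 for *CCNE1*, 0.55 and 0.11 for *CCNE2* and -0.33 and -0.09 for *GINS3*. Without the pair as a block, 3 members were higher and 0 lower, beside 1042 genes higher and 1001 lower of 13730. When 1 pair was left out, 3 to 6 members were higher and 2 to 7 lower, with 3 higher without either ICRF193 pair, 2 lower without the ICRF193 pair at 1 h or the pair without inhibitor at 0 h, and 3 lower without the ICRF193 pair at 0 h or the pair without inhibitor at 1 h TNFα. Over all genes, 1459 to 2497 were higher and 1723 to 2639 lower in these fits.

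**Figure D5:**
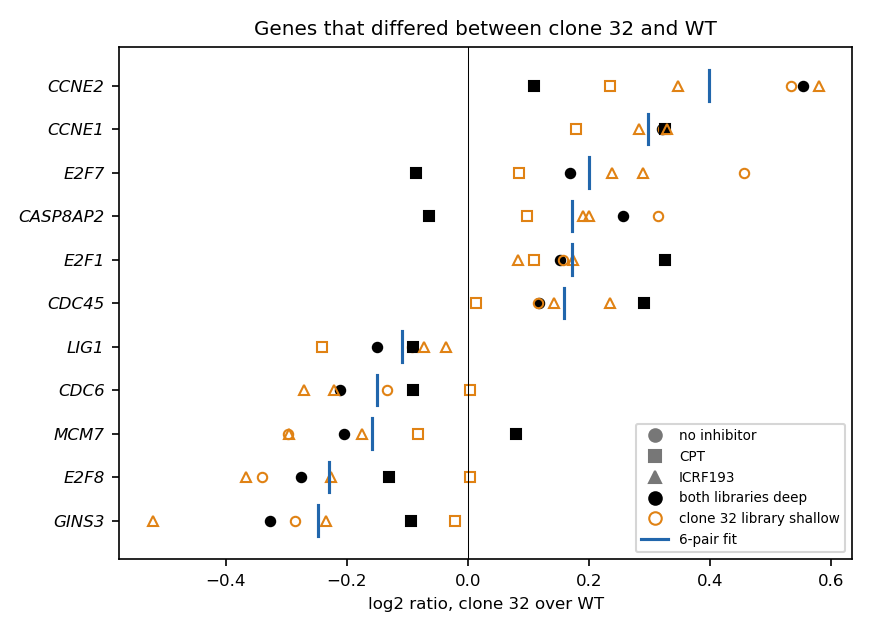
Log2 ratio of clone 32 over WT (x axis) in 6 pairs for the 11 genes called in that comparison, with the 6-pair edgeR estimate (blue bars). Filled black symbols are pairs with 2 deep libraries and open orange ones pairs in which the library of clone 32 is shallow. *CCNE1* lies between 0.18 and 0.33 in every pair, and *CCNE2* between 0.11 and 0.58.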

How the data were processed

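RNA-seq libraries were made by the authors from total RNA with a stranded kit. Per the file headers, the labels and the study's methods, reads were trimmed with Trimmomatic, mapped to hg19 (STAR is named in the submitters' processing notes) and counted on the exons of 26364 gene symbols with featureCounts 1.5.0. The deposited values are raw counts, without normalization. They were counted without a strand option, and reads on 2 genes or at several places were not counted.

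Counts were tested with edgeR 4.0.16 (R 4.3.3; TMM, filterByExpr, quasi-likelihood test) with the matched pair as a block and Benjamini-Hochberg adjustment over all genes tested. The threshold was an adjusted p below 0.05. All 42 members passed the filter. Since the pairs are not repeats of 1 condition, p-values rest on a spread between pairs and not between cultures. The fit shares that spread in part across genes, so it is not only the gene's own. Standard errors were derived from the fold change and the F statistic, and 95% intervals from them. Levels are CPM with TMM-scaled library sizes over 12 libraries. No 2 libraries held identical counts. The code was tested on simulated data.

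The members and lists were chosen with earlier results of these data known. Values in single libraries are given for the member raised and lowered most by CPT in each role, and for up to 4 members past the threshold with ICRF193, with TNFα, in clone 32 and in each interaction (0, 0, 4, and 1 by cell line). Of other pathway genes, up to 6 in each direction with the largest change were named. *E2F8* with ICRF193, the promoters printed and the ranges of further genes were chosen after their values were seen. Alternatives were DESeq2 1.42.0 size factors or Wald test, total counts, no filter, no block, leaving out each pair, and all 12 libraries in 1 fit. Promoter windows came from RefSeq (GRCh38.p14), and 5 members without a window were *MCM4*, *MCM5*, *GINS4*, *CCNE2* and *E2F8*. Coordinates of genes are hg19.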

Additional observations from a re-analysis of the deposited data

Results flagged for a closer look

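*CDT1* stood out as the 1 member whose interaction passed the threshold, and its CPT ratios went in opposite directions in the 2 cell lines. The difference, clone 32 minus WT, was 0.41 on the log2 scale (edgeR, adjusted p = 0.0152), with ratios of -0.37 and -0.20 in the WT pairs and of 0.14 and 0.10 in the pairs of clone 32. It passed in 7 of 8 alternatives, with values from 0.32 to 0.49. Each line gives 2 pairs, and 1 of the clone's pairs is shallow. The direction in each line was not tested by itself. The pairs of *FEN1* split in the same way (-0.11 and -0.04 in WT cells, 0.14 and 0.12 in clone 32). So did those of *MCM3* (-0.01 and -0.01, 0.13 and 0.12). Neither of these genes was called by cell line.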

How the results depend on the processing

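No direction reversed. Of 200 checks of the CPT calls 174 were kept, of CPT against ICRF193 162 of 200, and of clone 32 against WT 88 of 132. When 1 pair was left out, 3 to 11 members were raised by CPT, 13 to 17 differed between CPT and ICRF193, 0 to 2 were called for TNFα in either line, 3 to 6 were higher and 2 to 7 lower in clone 32, and 0 to 7 were called for CPT by cell line. These last fits, chosen after seeing the data, leave little to estimate the spread from. With 1 pair left out, the counts over all genes moved too. They ran from 2173 to 2996 raised by CPT, and from 132 to 815 with a higher CPT effect in clone 32. Total counts gave 1 member with ICRF193 (*E2F8*), beside 100 genes raised and 163 lowered of 13631. They gave 2 members for CPT by cell line (*CDT1* and *CCNE2*). There the CPT effect was higher in clone 32 for 298 of 13993 genes and lower for 394. DESeq2 size factors also gave 2 members for CPT by cell line, with 391 genes higher and 268 lower. No filter on low counts gave 5 members, with 609 genes higher and 487 lower of 20662. Without the pair as a block, 3 members were higher and 0 lower in clone 32, beside 1042 genes higher and 1001 lower of 13730. Without the 4 shallow libraries, an alternative chosen after seeing the data, 0 members were higher and 0 lower. That fit has 2 pairs and called 521 of 14268 genes. Scaling moved the median of all genes by less than 0.1 on the log2 scale. Each scaling is relative to the reads of a library, and none measures RNA per cell. Depth limited the 4 shallow libraries, in which *NPAT* and *E2F8* had as few as 191 and 203 reads with CPT. Effects of TNFα in clone 32 could not be tested without them, since each of its pairs holds one.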
